A study of Mus musculus with 16 samples.

Results

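The 37 genes described here encode the chaperones of the endoplasmic reticulum (ER), its translocation channel, the machinery that removes misfolded proteins from it, and the sensors and transcription factors of the unfolded protein response. They were chosen by gene name and not by a threshold on a measured value. The list was drawn up with earlier results of these data in view, so counts over it are descriptions. All 37 were found among the 38924 gene IDs of the count tables, and all 37 passed the filter on low counts that left 18350 genes to test. They fall into 18 luminal chaperones and folding enzymes, 2 subunits of the translocation channel, 8 genes of the degradation machinery, 4 sensors and regulators, and 5 genes of the Atf4 branch.

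Secretory and membrane proteins fold inside the ER with the help of chaperones, and glycan lectins and disulfide isomerases guide the same process. When folding falls behind, 3 membrane sensors act: IRE1 (gene Ern1), whose RNase splices the mRNA of the transcription factor Xbp1, PERK (gene Eif2ak3), which slows translation while favouring that of Atf4, and ATF6, which is cut to release a transcription factor. Xbp1 and ATF6 raise chaperone and degradation genes through a promoter motif called the ER stress element, while Atf4 raises genes of amino acid supply and stress signalling through the amino acid response element. Neurons make large amounts of membrane protein, and the pathway is known for its part in their response to injury and high secretory load.

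The series measured mRNA in punches of mouse brain whose labels give the ventral posterolateral nuclei of the thalamus, which relay touch and pain signals from the body. Its 4 groups of 4 libraries were CFA libraries labelled RGS4 KO, CFA libraries labelled wild type (WT), naive libraries labelled RGS4 KO and naive WT libraries. RGS4 shortens signalling by G proteins coupled to receptors. Per the series text, a floxed RGS4 allele was combined with Cre delivered by an adeno-associated virus. The sample labels name the genotype only as RGS4KO or WT. The labels do not say whether the WT mice carried the floxed allele or received a virus, and they give neither an age nor a time after CFA. The labels do not spell out CFA. In pain studies it usually means complete Freund's adjuvant, which is injected to cause inflammation. Each library pooled 4 punches of 12 gauge from 2 mice, so the spread between libraries is that between pools. The labels call the mice female and the protocol calls them male. Levels are in CPM, counts scaled to the size of the library. Xist lay between 559.7 and 750.1 CPM, and 4 Y-linked genes summed to 0.173 CPM or less in 15 of the 16 libraries and to 1.29 CPM in WT naive library 2. Calls in WT mice after CFA are also given without that library.

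Libraries held 18.1 M to 78.8 M counts, with a median of 42.6 M. Rgs4 averaged 84.1 ± 5.5 CPM in CFA libraries labelled RGS4 KO and 89.3 ± 6.66 CPM in CFA WT libraries, and 81.3 ± 2.74 CPM in naive libraries labelled RGS4 KO and 80.9 ± 3.66 CPM in naive WT libraries (SD, n = 4 each). No fall of Rgs4 was called in the libraries labelled RGS4 KO (adjusted p = 0.519 after CFA and 0.979 in naive mice, edgeR's quasi-likelihood test). The 95% interval of the fold was 0.871 to 1.01 after CFA and 0.93 to 1.08 in naive mice, so the genotype is given as a label throughout. The thalamic transcription factor gene Tcf7l2 averaged 128 to 156 CPM in the 4 groups and the vesicular glutamate transporter gene Slc17a6 averaged 461 to 492 CPM. The thalamic factor gene Gbx2 averaged at most 0.115 CPM in any group. Other listed relay markers were also low, with Tnnt1, Vipr2 and Ramp3 averaging at most 1.07, 2.56 and 2.99 CPM, while Calb2 averaged 195 to 199 CPM. The GABA synthesis genes Gad1 and Gad2 averaged 340.2 to 431 CPM and 512 to 564 CPM. Markers of oculomotor and Edinger-Westphal neurons, midbrain cells that the label does not cover, were also present, at levels that differed between groups. In such tissue a change in the share of a cell type and a change in RNA per cell cannot be told apart.

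RefSeq (GRCm38.p6) gave 36 promoter windows, from 250 bases before to 50 bases after a start, for 32 of the 37 genes. The ER stress element, searched on both strands as CCAAT and CCACG with 9 unset bases between them, lay in the windows of 9 of these 32 genes, namely Hspa5, Hsp90b1, Dnajc3, Creld2, Pdia6, Calr, Canx, Syvn1 and Derl3. It lay in 0.119% of all 32851 windows searched. A second form of the element, ATTGG and CCACG with 1 unset base between them, lay in the windows of Dnajb11 and Herpud1 and in 0.0365% of all windows. The Xbp1 motif TGACGTGG was found in the window of Txndc5 (0.676% of all windows). An amino acid response element, TGATGNAAN, was found for Txndc5, Herpud1, Trib3 and Asns (3.95% of all windows). None of the 4 motifs was found for Sdf2l1, the gene with the largest change after CFA, and a match or its absence says only which letters these windows hold.

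The following stretches, written 5′ to 3′ on the gene's strand, show the motif in capitals in the order of the results. They are chosen because they set genes that rose after CFA beside genes that did not pass the threshold, with and without the element. Hspa5 (chr2:34771840-34772089, plus strand), Hsp90b1 (chr10:86705445-86705694, minus strand, 2 elements), Pdia6 (chr12:17266469-17266588, plus strand) and Dnajc3 (chr14:118937812-118937931, plus strand) rose in WT mice and hold it.
Hspa5: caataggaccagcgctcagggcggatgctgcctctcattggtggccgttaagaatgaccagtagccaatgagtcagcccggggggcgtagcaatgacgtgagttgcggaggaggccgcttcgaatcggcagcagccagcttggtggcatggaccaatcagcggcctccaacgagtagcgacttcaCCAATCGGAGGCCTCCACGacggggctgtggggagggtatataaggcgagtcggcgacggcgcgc
Hsp90b1: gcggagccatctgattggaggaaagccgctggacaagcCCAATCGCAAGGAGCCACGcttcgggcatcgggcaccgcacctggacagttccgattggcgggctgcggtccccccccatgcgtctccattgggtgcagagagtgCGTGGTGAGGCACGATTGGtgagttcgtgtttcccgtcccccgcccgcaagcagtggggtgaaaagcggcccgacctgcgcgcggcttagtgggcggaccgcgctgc
Pdia6: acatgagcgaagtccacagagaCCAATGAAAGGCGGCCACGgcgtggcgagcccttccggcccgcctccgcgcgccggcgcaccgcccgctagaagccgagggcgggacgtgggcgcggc
Dnajc3: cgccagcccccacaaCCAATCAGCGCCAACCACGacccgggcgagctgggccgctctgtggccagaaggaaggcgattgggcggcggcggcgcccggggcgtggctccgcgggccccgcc
Canx (chr11:50325674-50325833, minus strand) and Derl3 (chr10:75893218-75893397, plus strand) hold the element and did not pass the threshold in WT mice, Derl3 by a small margin.
Canx: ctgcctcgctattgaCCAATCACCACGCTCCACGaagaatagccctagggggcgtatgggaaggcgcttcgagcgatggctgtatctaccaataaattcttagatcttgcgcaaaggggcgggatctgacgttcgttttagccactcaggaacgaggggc
Derl3: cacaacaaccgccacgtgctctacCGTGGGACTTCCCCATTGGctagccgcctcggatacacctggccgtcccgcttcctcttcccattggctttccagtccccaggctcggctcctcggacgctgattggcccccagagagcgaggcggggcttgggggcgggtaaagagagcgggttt
Sdf2l1 (chr16:17132384-17132633, minus strand) holds no match, Herpud1 (chr8:94386299-94386428, plus strand) holds an amino acid response element on its minus strand and the second form of the ER stress element, and Asns (chr6:7693210-7693269, minus strand) holds the amino acid response element.
Sdf2l1: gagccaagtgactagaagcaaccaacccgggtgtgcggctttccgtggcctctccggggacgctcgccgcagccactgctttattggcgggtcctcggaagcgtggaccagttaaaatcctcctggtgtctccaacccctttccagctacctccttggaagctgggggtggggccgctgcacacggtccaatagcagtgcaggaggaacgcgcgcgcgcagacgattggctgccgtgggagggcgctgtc
Herpud1: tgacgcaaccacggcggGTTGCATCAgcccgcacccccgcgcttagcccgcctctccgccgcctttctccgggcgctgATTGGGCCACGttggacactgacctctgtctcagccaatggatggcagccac
Asns: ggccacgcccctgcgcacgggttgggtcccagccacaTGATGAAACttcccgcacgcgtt

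Per kilobase of exon, the lectin chaperone genes Calr and Canx had the highest mean levels over the 16 libraries, at 124 and 123 CPM per kb. Hspa5, which encodes BiP, the central Hsp70 of the ER, followed at 86.3 CPM per kb and Hsp90b1, the Hsp90 of the ER, at 71.2 CPM per kb. Os9, a lectin that hands misfolded glycoproteins to degradation, stood at 62.8 CPM per kb. At the low end were Ern1 at 2.84, Derl3 at 0.865 and the pseudokinase gene Trib3 at 0.318 CPM per kb. The spread within groups was lowest for Sec61a1, with a coefficient of variation of 1.98%, and for Canx (2.09%). It was highest for Trib3 (21.3%), whose counts per library were 13 to 53, for Derl3 (17.6%) and for Sdf2l1 (11.4%).

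In WT mice, Hspa5, which encodes BiP, and 7 other luminal chaperone genes were higher in CFA than in naive libraries, with Sel1l and Xbp1. Of the 37 genes, 10 rose and 0 fell at an adjusted p under 0.05. Over all 18350 genes tested, 2.23% were called, 1.42% as higher and 0.807% as lower. An unadjusted p under 0.05 was found for 19 of the 37, against 17.6% of all genes. The median log2 change of the 37 genes was 0.082, and 28 were above 0, against 49.5% of all genes. In 15 of the 37 every CFA library was above every naive one (6.13% of all genes), and in 1 every CFA library was below (5.17%). By role, 8 of 18 luminal chaperones rose (median log2 change 0.17), and so did 1 of 8 degradation genes (0.047) and 1 of 4 sensors and regulators (0.033). Neither of the 2 translocon genes (0.013) and none of the 5 genes of the Atf4 branch (0.05) was called. Since the list was chosen with such results known, nothing is read from these shares against the background. Without WT naive library 2 the count was 6, Hsp90b1, Pdia6, Sel1l and Xbp1 losing their calls, and these same 4 calls were lost without WT naive library 3 or 4 or CFA WT library 11 or 12. Hsp90b1 and Pdia6 were also lost without CFA WT library 9 or 10, and Xbp1 without library 9. DESeq2 and a fit with no filter on low counts each called 12, the added genes being Creld2 and Derl3.

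Markers of other cells moved in the same WT comparison. The summed level of 12 oculomotor and Edinger-Westphal markers was 332 to 502 CPM in CFA WT libraries and 61.9 to 98 CPM in naive WT libraries. These sums did not overlap, so a fit with the markers as a covariate cannot well separate CFA from marker level in WT mice. With the mean log2 level of the 11 tested markers as that covariate, an alternative chosen after seeing the data, 4 of the 10 calls were kept (Sdf2l1, Dnajb11, Dnajc3 and Sel1l). The log2 changes of the 6 others with and without the covariate were 0.32 and 0.36 for Hspa5, 0.25 and 0.29 for Pdia4, 0.33 and 0.31 for Manf, 0.15 and 0.15 for Hsp90b1, 0.16 and 0.19 for Xbp1, and 0.1 and 0.19 for Pdia6. The sums of 12 neuron markers were 8710 to 8879 CPM in CFA WT libraries and 8239 to 8571 CPM in naive WT libraries, with 1 marker called, the neurofilament gene Nefl (adjusted p = 0.0118). Thalamic relay markers summed to 969 to 1084 CPM in CFA WT libraries and 958 to 1016 CPM in naive WT libraries. Of the 12 tested 2 rose, Cbln1 (adjusted p = 0.00737) and Ntng1 (adjusted p = 0.0105), where 1.42% of all genes rose. Log2 changes were above 0 for 7 and below 0 for 5 of the relay markers, and for 8 and 4 of the neuron markers. Cbln1 and Ntng1 were also higher in naive libraries labelled RGS4 KO than in naive WT libraries (adjusted p = 0.0322 for Cbln1 and 0.0359 for Ntng1). After CFA, Cbln1 was lower in libraries labelled RGS4 KO than in WT (adjusted p = 0.0282). Its interaction was called (log2 value -0.92, adjusted p = 0.0217). The part of the neuron and relay markers in the result was not tested.

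Sdf2l1, a luminal partner of the J-protein co-chaperones of BiP, changed most. The gene (ENSMUSG00000022769.7) lies on the minus strand at chr16:17130138-17132383 in mm10. It was at 12.4, 11.3, 12.7 and 13.9 CPM in the CFA WT libraries and at 8.37, 5.44, 6.83 and 8.62 CPM in the naive WT libraries. Every CFA library was above every naive library, and the fold was 1.73 (log2 change 0.79, SE 0.11, adjusted p = 0.00104). Its lowest naive value came from WT naive library 2, without which the log2 change was 0.67.

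Hspa5 (ENSMUSG00000026864.7, plus strand, chr2:34771970-34777547) was at 438, 394, 422 and 428 CPM in the CFA WT libraries and at 351, 297, 327 and 335 CPM in the naive WT libraries. The groups did not overlap, and the fold was 1.29 with a 95% interval of 1.18 to 1.4 (adjusted p = 0.00353). Pdia4, a disulfide isomerase found with BiP, was at 62.3, 56.6, 60.8 and 60.7 CPM after CFA and at 50.8, 45, 49 and 51.7 CPM in naive WT mice. It rose 1.22-fold (SE of the log2 change 0.051, adjusted p = 0.00549), again with no overlap. Manf, an ER protein that binds BiP and can be secreted as a trophic factor, was at 46.5, 48.8, 53.4 and 47.2 CPM after CFA and at 42.1, 33.7, 41.8 and 40.2 CPM in naive WT mice. Its fold was 1.24 (adjusted p = 0.0134), and its exons overlap those of neighbouring genes over 326 bases, so part of its reads cannot be assigned with certainty. Without WT naive library 2 the log2 changes were 0.32 for Hspa5 (adjusted p = 0.01), 0.25 for Pdia4 (0.0218) and 0.25 for Manf (0.0285).

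A pair of J-protein co-chaperones of BiP rose as well. Dnajc3 was at 105, 98.5, 106 and 103 CPM in the CFA WT libraries and at 87.8, 81.6, 89 and 91 CPM in the naive WT libraries, a fold of 1.18 (adjusted p = 0.0109). Dnajb11 was at 45.5, 48.4, 48.1 and 49.4 CPM after CFA and at 42.9, 40.1, 39 and 43 CPM in naive WT mice, a fold of 1.16 (adjusted p = 0.0109). In both genes all 4 CFA libraries were above all 4 naive ones. Without WT naive library 2 the adjusted p was 0.0494 for Dnajc3 and 0.0455 for Dnajb11, close to the threshold. Changes of the isomerase gene Pdia6 and of Hsp90b1 were smaller. Pdia6 averaged 124 ± 2.09 CPM after CFA and 109 ± 6.4 CPM in naive WT mice (SD, n = 4 each; fold 1.14, adjusted p = 0.0305), and naive library 1, at 118 CPM, came close to the lowest CFA library at 122 CPM. Hsp90b1 averaged 309.8 ± 4.78 CPM after CFA and 279 ± 11.5 CPM in naive WT mice (fold 1.11, adjusted p = 0.0434), with 632 exonic bases shared with other genes.

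The other 10 luminal chaperones were not called in WT mice. Creld2, an ER stress responsive folding factor, averaged 22.3 ± 1.01 CPM after CFA and 19 ± 2.19 CPM in naive WT mice, with no overlap (fold 1.17, log2 change 0.23, adjusted p = 0.0694). DESeq2 (adjusted p = 0.0324) and the fit with no filter (0.0441) called Creld2, while without WT naive library 2 its log2 change was 0.15 (adjusted p = 0.186). Calr averaged 388 ± 10.4 CPM after CFA and 342 ± 32.6 CPM in naive WT mice (adjusted p = 0.11). Its adjusted p was 0.0183 without WT naive library 1 (log2 change 0.24) and 0.25 without WT naive library 2 (log2 change 0.13). Erp44, which retains unfinished disulfide-bonded proteins, was at 40.2, 38.9, 39.4 and 37.8 CPM after CFA and at 36.3, 35.9, 37.4 and 35.6 CPM in naive WT mice (adjusted p = 0.128). Canx, the membrane-bound partner of Calr, averaged 594 ± 6.96 CPM after CFA and 573 ± 11.2 CPM in naive WT mice (log2 change 0.052, adjusted p = 0.333). Log2 changes of the nucleotide exchange factor genes were 0.1 for Hyou1 and -0.055 for Sil1, and those of the J-protein genes Dnajb9 and Dnajc10 were 0.082 and -0.037. The isomerase genes P4hb and Txndc5 had log2 changes of 0.063 and -0.084.

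Among the degradation genes, Sel1l rose. It encodes the adaptor that links the ubiquitin ligase of Syvn1 to its substrates. Its level was 255, 258, 257 and 266 CPM in the CFA WT libraries and 241, 239, 238 and 234 CPM in the naive WT libraries, without overlap (fold 1.09, SE of the log2 change 0.028, adjusted p = 0.0237). Derl3, a derlin of the retrotranslocation complex, was at 2.24, 2.5, 1.77 and 2.23 CPM after CFA and at 1.7, 1.34, 1.38 and 1.39 CPM in naive WT mice. Although its fold was 1.51 and the groups did not overlap, it missed the threshold (adjusted p = 0.0529). Derl3 was called with DESeq2 (0.03), with no filter (0.0357), in a fit on the 2 groups alone (0.036) and without CFA WT library 11 (0.0429), and its adjusted p was 0.144 without WT naive library 2. Os9 went the other way, at 158, 161, 157 and 159 CPM after CFA and 169, 172, 167 and 164 CPM in naive WT mice, all 4 CFA libraries being lower (log2 change -0.081, adjusted p = 0.153). The remaining log2 changes were 0.077 for Syvn1, 0.06 for the mannosidase-like gene Edem1, 0.034 for Herpud1, 0.02 for Derl1 and -0.0058 for Derl2, none of them called.

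Of the sensors and regulators, Xbp1 rose and the others were not called. Xbp1 was at 98.6, 89.6, 92.6 and 100.3 CPM in the CFA WT libraries and at 87.6, 80.4, 83 and 83.9 CPM in the naive WT libraries. The fold was 1.14 (log2 change 0.19, SE 0.049, adjusted p = 0.0489), close to the threshold. Counts per gene do not separate its spliced from its unspliced mRNA. Eif2ak3 was at 33, 33.7, 35.7 and 32.3 CPM after CFA and at 32, 32.3, 31 and 31.7 CPM in naive WT mice (adjusted p = 0.267). Ern1 was at 22.9, 24.3, 23.8 and 21.8 CPM after CFA and at 22.9, 22.6, 24.7 and 23.9 CPM in naive WT mice (adjusted p = 0.872). Ppp1r15a, which encodes the phosphatase subunit that restores translation, had a log2 change of -0.061.

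**Figure D1:**
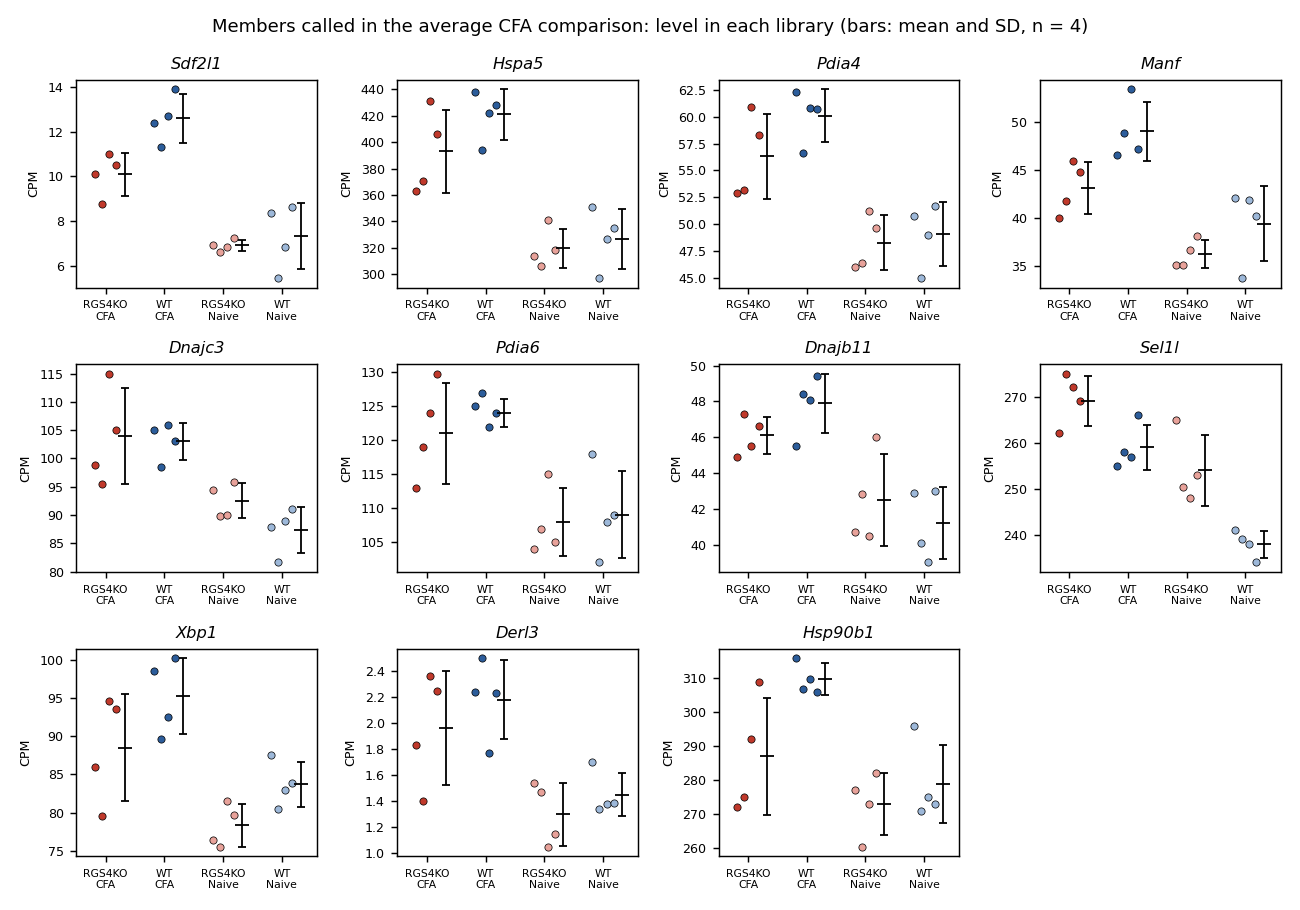
Level in CPM (vertical axis, not starting at 0) of the 11 genes called in the average CFA comparison, with 1 point per library and bars for the mean and SD of each group (n = 4). Sdf2l1, Hspa5, Pdia4 and Manf show all CFA libraries above all naive libraries of the same labelled genotype, while Xbp1, Pdia6 and Hsp90b1 overlap between the groups labelled RGS4KO.

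In libraries labelled RGS4 KO, 24 of the 37 log2 changes after CFA were above 0 and 13 below, and that of Hspa5 passed the test. Hspa5 was at 363, 370.3, 431 and 406 CPM in the CFA libraries labelled RGS4 KO and at 314, 306, 341 and 318 CPM in the naive ones. Again no library overlapped, and the fold was 1.23 with a 95% interval of 1.13 to 1.33 (adjusted p = 0.0414). It was the 1 gene called of the 37, with 0 lower, in a comparison that called 0.185% of all genes tested, 0.0981% as higher and 0.0872% as lower. The call was lost when naive library 6 labelled RGS4 KO was left out (adjusted p = 0.181), and in 7 of the other 14 alternatives tried. The naive and CFA libraries of this genotype are not those of the WT comparison, but both comparisons rest on 1 spread per gene, fitted over all 16 libraries.

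Sdf2l1 was at 10.1, 8.78, 11 and 10.5 CPM in the CFA libraries labelled RGS4 KO and at 6.94, 6.62, 6.84 and 7.25 CPM in the naive ones, without overlap. Its fold was 1.45 (SE of the log2 change 0.12), and the adjusted p of 0.079 did not pass, whereas DESeq2 gave 0.00299 for it. Pdia4 was at 52.9, 53.2, 60.9 and 58.3 CPM after CFA and at 46, 46.4, 51.2 and 49.7 CPM in naive libraries labelled RGS4 KO (fold 1.16, adjusted p = 0.129). Manf was at 40, 41.7, 45.9 and 44.8 CPM after CFA and at 35.1, 35.1, 36.6 and 38.1 CPM in naive ones (fold 1.19, adjusted p = 0.217). Of the 37 genes, 4 had every CFA library above every naive one, namely these 3 and Hspa5, as did 2.13% of all genes. The 10 genes called in WT mice all had positive log2 changes here, between 0.071 and 0.54, and 9 of them had an unadjusted p under 0.05, as did 7.81% of all genes.

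Median log2 changes by role in the libraries labelled RGS4 KO were 0.092 for luminal chaperones, -0.017 for the translocon, -0.0035 for degradation genes, 0.075 for sensors and regulators and 0.032 for the Atf4 branch. Over all 37 genes the median was 0.049, and 48.8% of all genes were above 0. Dnajc3 averaged 104 ± 8.5 CPM after CFA and 92.5 ± 3.09 CPM in naive libraries labelled RGS4 KO (adjusted p = 0.313). Dnajb11 averaged 46.1 ± 1.04 CPM after CFA and 42.5 ± 2.58 CPM in naive ones (adjusted p = 0.486). For Pdia6 the means were 121 ± 7.42 CPM after CFA and 108 ± 4.99 CPM in naive ones (adjusted p = 0.2), and for Hsp90b1 287 ± 17.2 CPM after CFA and 273 ± 9.09 CPM in naive ones (adjusted p = 0.703; SD, n = 4 each). In these 4 genes at least 1 CFA library lay within the range of the naive ones. Sel1l was at 262, 275, 272 and 269 CPM after CFA and at 265, 250.4, 248 and 253 CPM in naive ones, where naive library 5 lay above the lowest CFA library (adjusted p = 0.386). Xbp1 was at 86, 79.6, 94.6 and 93.6 CPM after CFA and at 76.4, 75.5, 81.5 and 79.7 CPM in naive ones (log2 change 0.18, adjusted p = 0.254).

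Averaged over both labelled genotypes, CFA was followed by higher levels of 11 of the 37 genes and lower levels of 0, in a comparison that called 1.81% of all genes, 1.08% as higher and 0.73% as lower. These were 8 luminal chaperones, the degradation genes Sel1l and Derl3, and Xbp1. The folds were 1.58 for Sdf2l1 (adjusted p = 0.000127), 1.26 for Hspa5 (0.000213) and 1.48 for Derl3 (0.0152). Creld2 (adjusted p = 0.0605) and Calr (0.0949) were not called by edgeR, while DESeq2 called both (0.0251 for Creld2 and 0.031 for Calr). No member of the Atf4 branch or of the translocon was called.

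**Figure D2:**
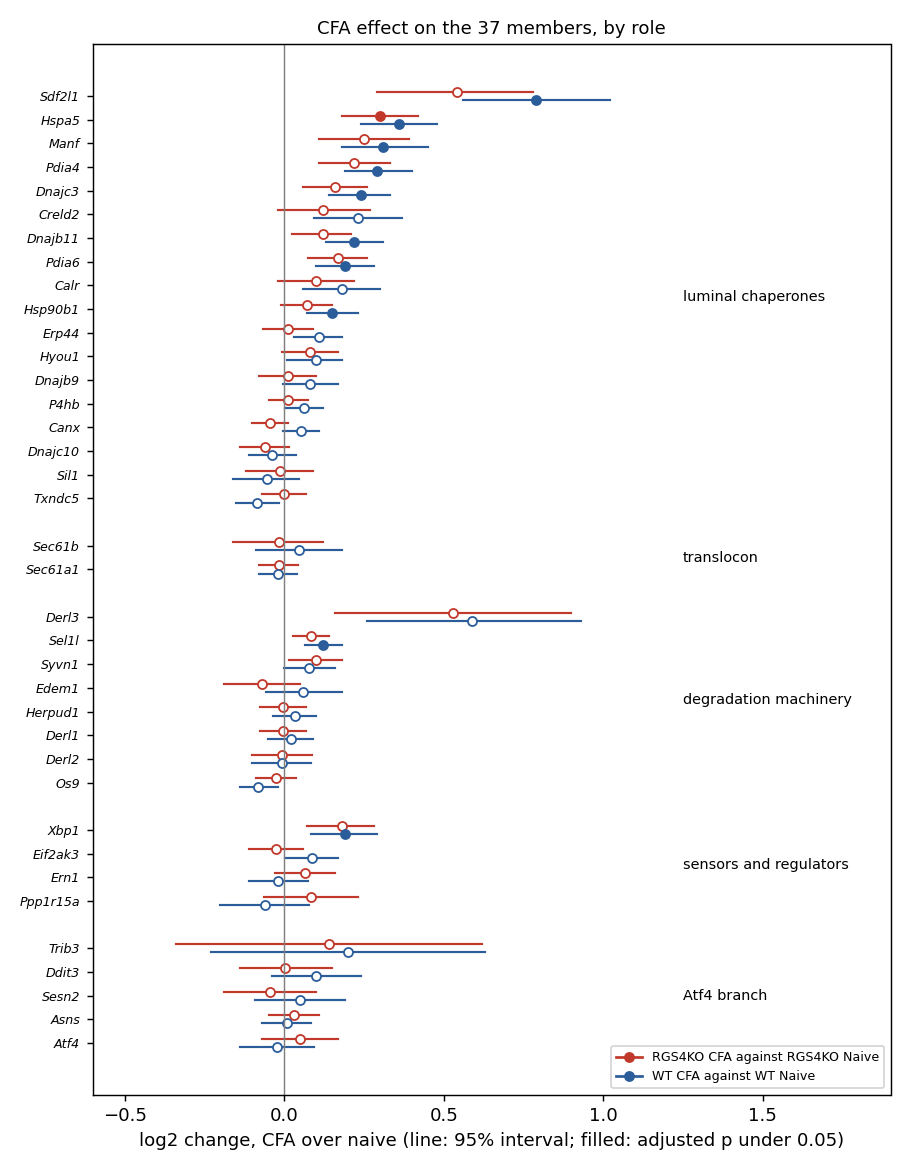
Log2 change of each of the 37 genes, CFA over naive, by role, with RGS4KO (red) above WT (blue). Lines are 95% intervals for single genes and filled points have an adjusted p under 0.05. Filled points lie among the luminal chaperones, at Sel1l and at Xbp1, while the points of the Atf4 branch and the translocon are open.

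Whether the response to CFA differed between the labelled genotypes was tested directly by the interaction. None of the 37 genes was called by edgeR, in a contrast that called 0.0654% of all genes, and 1 had an unadjusted p under 0.05, as did 9.86% of all genes. DESeq2 also called 0. That 1 gene was Canx, with an interaction log2 value of -0.1 (adjusted p = 0.401). For Hspa5 the ratio of the fold in libraries labelled RGS4 KO to that in WT was 0.955, with a 95% interval of 0.85 to 1.07. For Sdf2l1 it was 0.841, with an interval of 0.666 to 1.06 (adjusted p = 0.629). Of the interaction values 28 were below 0 and 9 above, where 49.9% of all genes were above 0, and those of the 10 genes called in WT lay between -0.25 and -0.011. The interaction subtracts the WT change, so genes picked for a rise in WT lean below 0 by that choice. Nothing is read from these signs. Despite the larger number of calls in WT mice, the interaction test called no difference between the labelled genotypes in the 37 genes. The intervals for Hspa5 and Sdf2l1 do not show that the responses were alike.

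The Atf4 branch was not called in any of the 7 comparisons. Atf4 itself was at 94.8, 104, 88.4 and 99.1 CPM in CFA libraries labelled RGS4 KO, against 84.2, 89.4, 98.4 and 102 CPM in naive ones. In WT mice it was at 96.4, 91.8, 92.8 and 102 CPM after CFA and at 99, 96, 93.4 and 101 CPM in naive libraries. All 4 groups overlapped, and the 95% interval of the CFA fold was 0.953 to 1.12 in libraries labelled RGS4 KO and 0.907 to 1.07 in WT.

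Ddit3, which encodes the pro-apoptotic factor CHOP, was at 20, 18.6, 18.7 and 18.2 CPM after CFA and 16.9, 18.6, 18.3 and 21.8 CPM in naive libraries labelled RGS4 KO. Its WT values were 20.3, 20.2, 21.2 and 20 CPM after CFA and 20.9, 17.3, 18.1 and 20 CPM in naive libraries (adjusted p = 0.462). Asns, the asparagine synthetase gene whose window holds the amino acid response element shown above, averaged 108 ± 5.12 CPM after CFA and 106 ± 2.79 CPM in naive libraries labelled RGS4 KO. The WT means were 109 ± 1.95 CPM after CFA and 108 ± 5.38 CPM in naive mice, with a fold interval of 0.953 to 1.06. Sesn2, a stress-induced regulator of mTOR signalling, averaged 18.2 ± 1.23 CPM after CFA and 18.7 ± 1.9 CPM in naive libraries labelled RGS4 KO, and 18.2 ± 1.22 CPM after CFA and 17.6 ± 0.945 CPM in naive WT mice. Trib3 was below 1 CPM in all 16 libraries, and its WT fold interval of 0.85 to 1.55 is the widest of the 5. These intervals bound the changes but do not show that the levels were equal.

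**Figure D3:**
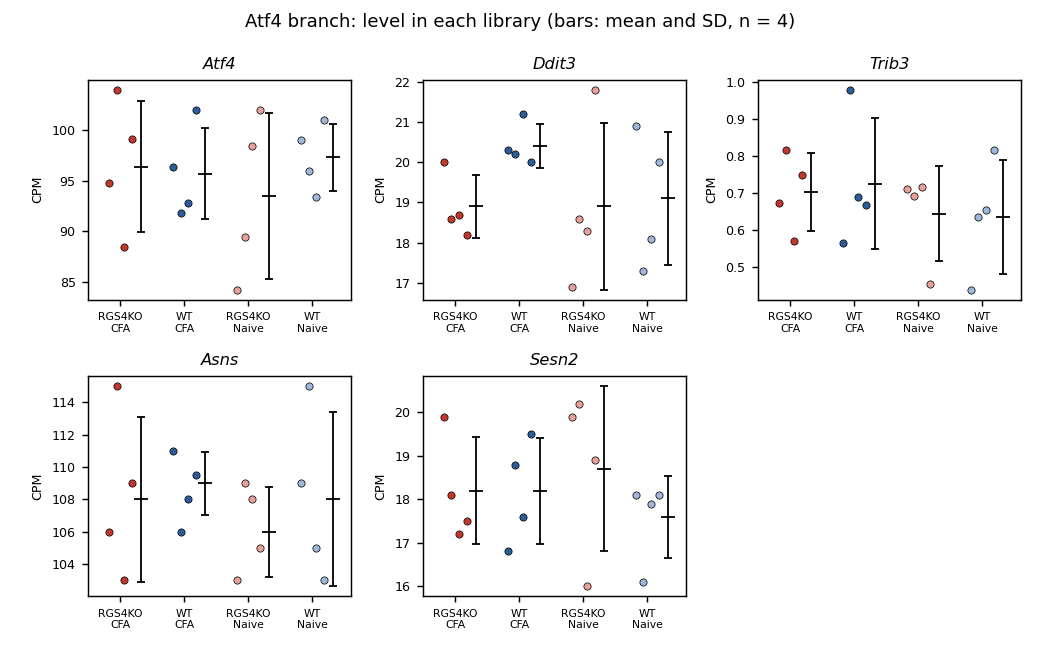
Level in CPM (vertical axis, not starting at 0) of the 5 genes of the Atf4 branch, with 1 point per library and bars for the mean and SD of each group (n = 4). Libraries of all 4 groups overlap in each panel.

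Neither genotype comparison called any of the 37 genes. After CFA, 1.6% of all genes were called and 4.25% had every library labelled RGS4 KO below every WT library. Of the 37 genes, 12 had log2 values above 0 and 25 below, with a median of -0.037, where 49.6% of all genes were above 0. Of the 37, 6 had an unadjusted p under 0.05, against 12.3% of all genes. DESeq2 also called 0. In 4 luminal genes, Sdf2l1, Manf, Creld2 and Canx, all CFA libraries labelled RGS4 KO were below all CFA WT libraries. Sdf2l1 averaged 10.1 ± 0.966 CPM in CFA libraries labelled RGS4 KO and 12.6 ± 1.09 CPM in CFA WT libraries (fold 0.8, adjusted p = 0.178). Manf averaged 43.1 ± 2.72 CPM in the CFA libraries labelled RGS4 KO and 49 ± 3.1 CPM in the CFA WT libraries (adjusted p = 0.176). Os9 was the 1 gene with all libraries labelled RGS4 KO higher, at 169, 162, 166 and 165 CPM against 158, 161, 157 and 159 CPM in WT (adjusted p = 0.432), a pattern shown by 3.78% of all genes.

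In naive mice the median log2 value was -0.021 and 2 of the 37 genes had an unadjusted p under 0.05, in a comparison that called 1.45% of all genes and 13.8% without adjustment. These were Sel1l and Eif2ak3, and each had all 4 libraries labelled RGS4 KO above all 4 WT libraries, as did 3.83% of all genes. Sel1l was at 265, 250.4, 248 and 253 CPM in naive libraries labelled RGS4 KO and at 241, 239, 238 and 234 CPM in naive WT libraries (fold 1.07, adjusted p = 0.0988). DESeq2 called it (adjusted p = 0.0239). Eif2ak3 was at 32.6, 35.3, 33.2 and 34 CPM in naive libraries labelled RGS4 KO and at 32, 32.3, 31 and 31.7 CPM in naive WT libraries (adjusted p = 0.344). Averaged over both treatments, Sel1l was the 1 gene called of the 37, as higher (log2 value 0.076, adjusted p = 0.0325), where 3.73% of all genes were called and 1.74% as higher. That call was lost in 12 of 22 alternatives. Without WT naive library 2, 4 genes were called in that average, and Sdf2l1, Manf and Creld2 among them were lower.

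Within groups, the libraries with more Hspa5 also held more of a few of the other 36 genes. Each library's log2 level, with 0.5 CPM added, was taken as its deviation from its group mean, and 36 genes were set against Hspa5 over 16 libraries by permutation within groups. The relation with Pdia4 had a Pearson r of 0.95 (permutation p = 1e-04, adjusted 0.0036) and a Spearman rho of 0.94 (adjusted 0.00288). For Xbp1, r was 0.84 (permutation p = 0.00063, adjusted 0.0113) and rho 0.86 (adjusted 0.0121). The value of r without the 2 libraries farthest from the median, WT naive library 2 and CFA library 15 labelled RGS4 KO, was 0.92 for Pdia4 and 0.83 for Xbp1. For Sdf2l1, r was 0.74 (permutation p = 0.00386, adjusted 0.0463), but rho was 0.65 (adjusted 0.134) and r was 0.63 without these libraries. No other gene had an adjusted p of r under 0.05, and the BiP co-chaperone gene Dnajb11 had an r of 0.023 and a rho of 0.024. How common such values of r are among all genes tested was not computed. Atf4 had an r of 0.084 and a rho of 0.13 (permutation p = 0.775, adjusted 0.845, for r). Each point shares its library's depth and tissue content between both axes.

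**Figure D4:**
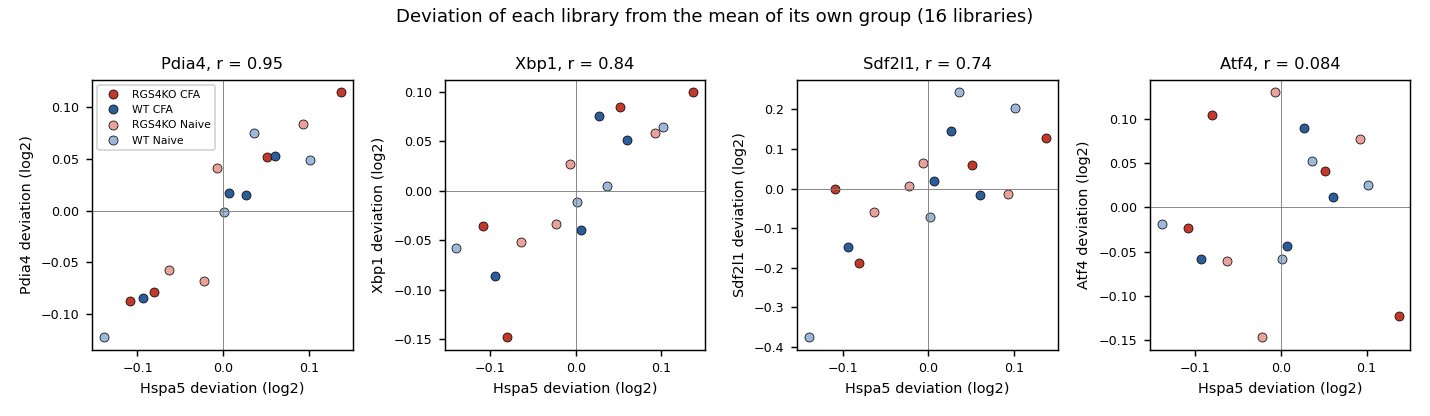
Deviation of each of 16 libraries from the mean of its own group on the log2 scale, for Hspa5 (horizontal) and for Pdia4, Xbp1, Sdf2l1 and Atf4 (vertical), coloured by group. Points for Pdia4 (r of 0.95) and Xbp1 (r of 0.84) follow a rising line, and those for Atf4 (r of 0.084) do not.

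Beyond the 37 genes, 173 other genes of ER folding, translocation, degradation, stress sensing and Atf4 signalling were listed, of which 169 were tested. In WT mice 5 of them rose after CFA and 0 fell, where 1.42% of all genes rose, and their median log2 change was 0.0045. Pdia3, the disulfide isomerase that works with Calr and Canx, averaged 256 ± 6.28 CPM after CFA and 228 ± 6.62 CPM in naive WT mice (SD, n = 4 each; adjusted p = 0.0109). Stt3b, a catalytic subunit of the enzyme that attaches N-glycans, averaged 101 ± 0.911 CPM after CFA and 92.2 ± 0.887 CPM in naive WT mice (adjusted p = 0.00922). The other called genes were the transmembrane transcription factor gene Creb3l2 and, among the listed Atf4 targets, Cth of cysteine synthesis and the amino acid transporter gene Slc38a2 (221 ± 15.6 CPM after CFA and 189 ± 12 CPM in naive WT mice, adjusted p = 0.0456). None of the 169 was called in libraries labelled RGS4 KO after CFA by edgeR, where 11 had an unadjusted p under 0.05, against 7.81% of all genes. In both genotype comparisons 1 of the 169 was lower, the leucyl-tRNA synthetase gene Lars. It averaged 44.6 ± 2.38 CPM in CFA libraries labelled RGS4 KO and 52.2 ± 3.36 CPM in CFA WT libraries (adjusted p = 0.0341), and 48.2 ± 0.947 CPM in naive libraries labelled RGS4 KO and 56.9 ± 4.56 CPM in naive WT libraries (adjusted p = 0.0324).

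Of 25 cytosolic heat shock genes, which answer misfolding outside the ER, 5 rose in WT mice after CFA, 0 fell and 20 were not called, where 1.42% of all genes rose. Their median log2 change was 0.11. They were Stip1, Chordc1, Hsph1, Hspa4l and Hspa1b, the last named after its values were seen. Hspa1b, an inducible Hsp70 gene, averaged 4.27 ± 1.15 CPM after CFA and 1.76 ± 0.403 CPM in naive WT mice (SD, n = 4 each; adjusted p = 0.0409). In libraries labelled RGS4 KO none of the 25 was called after CFA by edgeR and 8 had an unadjusted p under 0.05, against 7.81% of all genes, with a median of 0.068.

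Of 13 listed oculomotor and Edinger-Westphal markers 12 were in the tables and 11 were tested. In WT mice 5 of the 11 rose after CFA, where 1.42% of all genes rose. Among the 5 was Cartpt, a peptide gene of these neurons, at 277 ± 33.3 CPM after CFA and 33.2 ± 16.7 CPM in naive mice. In libraries labelled RGS4 KO the sums were 105 to 265 CPM after CFA and 63.8 to 352 CPM in naive mice, with 0 markers called and a median log2 change of -0.1. No listed marker was at 0 in every library. CFA library 15 labelled RGS4 KO had the highest Hspa5 level of its group, 431 CPM, at a marker sum of 125 CPM. Naive library 7 labelled RGS4 KO was the highest of its group in both, with a sum of 352 CPM and 341 CPM of Hspa5. Among CFA WT libraries, library 9 was highest in both (502 and 438 CPM) and library 10 lowest in both (332 and 394 CPM). Among naive WT libraries, library 3 had the highest sum, 98 CPM, and 327 CPM of Hspa5. Whether Hspa5 follows the markers within groups was not tested.

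With the markers as a covariate, the adjusted p in WT mice was 0.0742 for Hspa5, 0.114 for Pdia4 and 0.109 for Manf. For the average over both genotypes 7 of 11 calls were kept, among them Hspa5 (adjusted p = 0.0143). The sums of 12 oligodendrocyte markers were 8860 to 10069 CPM in CFA WT libraries and 6970 to 9017 CPM in naive WT libraries, with a median log2 change of 0.23. In libraries labelled RGS4 KO they were 7368 to 9874 CPM after CFA and 7346 to 11829 CPM in naive mice. There all 12 log2 changes were below 0, with a median of -0.2, and 0 were called in either genotype. The sums of 12 astrocyte markers were 4806 to 4987 CPM in CFA WT libraries and 4699 to 4772 CPM in naive WT libraries. In libraries labelled RGS4 KO they were 4404 to 4674 CPM after CFA and 4605 to 4920 CPM in naive mice. The astrocyte marker Ntsr2 was lower in libraries labelled RGS4 KO than in WT, after CFA (adjusted p = 0.011) and in naive mice (0.0478). Averaged over both labelled genotypes, 4 further markers were higher after CFA. These were the astrocyte markers Gjb6 (adjusted p = 0.00892) and Fgfr3 (0.0152), the endothelial marker Slc2a1 (0.0132) and the relay marker Prkcd (0.0255). In that average 1.08% of all genes were called higher. Its log2 values were above 0 for 6 and below 0 for 6 of the astrocyte markers. They were above 0 for 9 and below for 3 of the endothelium and mural markers, and for 8 and 4 of the tested relay markers. The part of these cell types in the result was not tested.

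**Figure D5:**
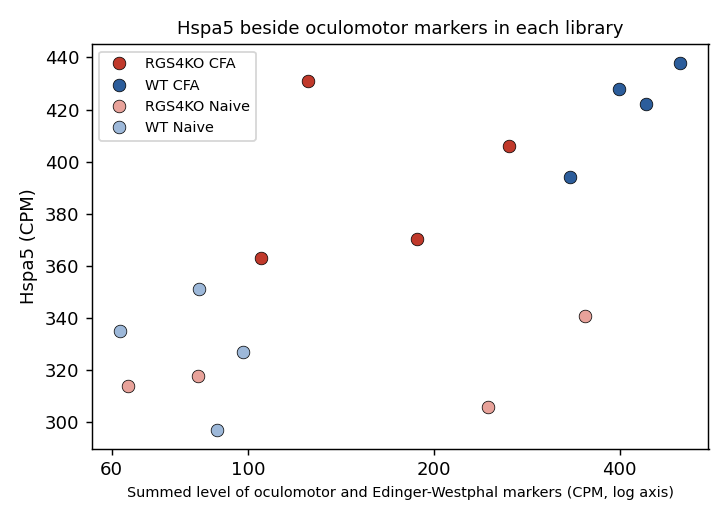
Hspa5 level in CPM (vertical axis, not starting at 0) against the summed level of oculomotor and Edinger-Westphal markers in CPM (horizontal log axis), with 1 point per library in 4 colours by group. CFA WT libraries are high on both axes, while CFA libraries labelled RGS4KO lie above naive ones in Hspa5 at marker sums of 105 to 265 CPM.

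Members whose windows hold the ER stress element had a median log2 change after CFA of 0.12 in libraries labelled RGS4 KO and 0.19 in WT mice. In WT mice 4 of these 9 rose, where 1.42% of all genes rose. The 23 members with a window and no such element had medians of 0.01 in libraries labelled RGS4 KO and 0.06 in WT mice, where 5 rose. Their WT log2 changes ran from -0.084 to 0.79, the top being Sdf2l1, and those of the 9 holders ran from 0.052 for Canx to 0.59 for Derl3. These are descriptions of a chosen list, with no test. Of the 18 luminal chaperones, 15 had a window and 7 of those held the element. Most of the 9 holders are thus luminal chaperones, so holders and other members also differ in role. The part of role in these medians was not tested.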

How the data were processed

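mRNA of 16 pools of brain punches, labelled as thalamus, was sequenced. The values the authors deposited are read counts per Ensembl gene, in whole numbers and not normalized. The submitters' processing notes name TopHat, DESeq2 and mm10 without versions, and the tables end with lines of the form that HTSeq writes. The version of the counter, its strand setting and its annotation were not stated there. Reads listed without a gene (38% to 39.9%) were left out. Libraries were made with the TruSeq kit, version 2, per the labels' protocols, and were taken as unstranded. Genes that overlap others, and near-identical copies (Sec61b, Derl1, Dnajb9), therefore have uncertain counts.

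GENCODE of the same build named 37607 of 38924 IDs. Counts were fitted with edgeR 4.0.16 (R 4.3.3), using TMM scaling, filterByExpr at a minimum count of 10 and robust quasi-likelihood fits over all 16 libraries with the 4 group means as terms. This left 18350 genes, with a common biological coefficient of variation of 6.1%. The 7 contrasts were two-sided, adjusted over all genes tested by the Benjamini-Hochberg method, and called at 0.05. CPM are on TMM-scaled sizes, and intervals are at 95%. The fit was tested on simulated data. Alternatives were DESeq2 1.42.0, RLE factors, no filter, a minimum of 50, the 2 groups compared alone, thinning to the shallowest library, each library left out, and 1 chosen later. Chi-square per degree of freedom between replicates was 3.55 to 13.7, above sampling noise, so all were kept.

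The members and lists were chosen with earlier results of these data known. Library values are given for members called in any contrast, the Atf4 branch and the 2 members of each role with the lowest p in any contrast. Other pathway genes and markers are named where called, at most 4 per list, and Rgs4 as the label check. Calr and Creld2 are given with values chosen after these were seen.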

Additional observations from a re-analysis of the deposited data

Results flagged for a closer look

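Among 104 combinations of a gene and a group, over the 26 genes given library by library, 4 had 1 library far from the other 3 by Dixon's ratio, and chance sets about 1 in 20 groups apart in this way. Herpud1 was at 77 CPM in naive library 8 labelled RGS4 KO and at 72.4 to 73 CPM in the other naive libraries of that label. Trib3 was at 0.453 CPM in the same library and at 0.692 to 0.717 CPM in the others. Derl3 was at 1.7 CPM in WT naive library 1 and at 1.34 to 1.39 CPM in the others. Sesn2 was at 16.1 CPM in WT naive library 2 and at 17.9 to 18.1 CPM in the others.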

How the results depend on the processing

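No paired analysis was possible because no replicate number is shared between groups. No gene named with values reversed its direction while called under any alternative. The 10 members called in WT mice after CFA became 6 to 11 with 1 library left out, with 6 without WT naive library 2, 3 or 4 or CFA WT library 12, 7 without CFA WT library 9 or 11, 4 with the oculomotor marker level as a covariate (chosen after seeing the data), 7 when thinned, and 12 with DESeq2 or no filter. Sdf2l1, Dnajb11 and Dnajc3 were called in all 15 alternatives, and Hspa5, Pdia4 and Manf in 14, being lost with the covariate. Sel1l kept its call in 9, Hsp90b1 in 7, Pdia6 and Xbp1 in 6. In libraries labelled RGS4 KO the 1 call after CFA became 3 with DESeq2, 0 without a filter, 0 with the covariate and 0 to 1 with 1 library left out (0 without naive library 5, 6 or 8 or CFA library 15 or 16). The average CFA count of 11 was 7 with the covariate, 13 with DESeq2, 12 with no filter and 10 to 12 with 1 library left out. The genotype average of 1 was 2 with DESeq2, 0 without a filter, 0 when thinned, 0 with the covariate and 0 to 4 with 1 library left out. The naive genotype count of 0 was 1 with DESeq2 and 1 with the covariate. Genotype after CFA and the interaction stayed at 0 in all alternatives run. Of 630 median changes by role, 20 moved by more than 1 SD between replicates. The cause of these shifts was not tested, except that thinned and smaller sets hold fewer reads or samples. The low counts of Trib3 and Derl3 limit their precision.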
